A study of Mus musculus with 24 samples.

Results

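The 8 genes Hmgcs1, Idi1, Fdft1, Sqle, Lss, Cyp51, Msmo1 and Dhcr7 encode enzymes that build cholesterol, and were chosen by name from the 55418 genes counted in mouse lumbar spinal cord. RNA came from 24 mice of the C57BL/6J background that were 8 to 10 weeks old at the start, in 8 groups of 3 that cross genotype, treatment and sex. The groups were knockout mice given paclitaxel, wild-type mice given paclitaxel, knockout mice given vehicle and wild-type mice given vehicle, each as males and as females. Knockout mice lack Chrna7, the gene of the alpha7 nicotinic acetylcholine receptor subunit, in myeloid cells only, and the sources used here do not name the promoter that drives this deletion. Paclitaxel, a taxane that stabilises microtubules and causes painful neuropathy, was injected 4 times at 1 mg per kg. Control mice received the Kolliphor, ethanol and water vehicle, and all cords were taken on day 7 after the first injection. The comparisons ask whether the drug, the deletion or sex went with the level of these transcripts, and whether the enzymes vary together from cord to cord.

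Cholesterol is made from acetyl-CoA through mevalonate, isoprenoids, squalene and lanosterol, and each of the 8 enzymes catalyses 1 stage of that route. Lipoprotein cholesterol hardly crosses the barriers of the central nervous system, so the spinal cord makes its own. Oligodendrocytes use it for myelin, and astrocytes supply it to neurons. The transcription factor encoded by Srebf2 is held in the endoplasmic reticulum by the products of Scap and Insig1 while sterols are plentiful, and switches on the genes of the pathway when sterols run low.

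The libraries held 88812295 to 112158154 counts, with a median of 94343662. A single library, wild-type female paclitaxel replicate 3, stood apart with the profile of a sensory ganglion. Its markers of dorsal root ganglion neurons summed to 5580 CPM (counts scaled to library totals) against 120.4 to 173 CPM in the 23 others, and its oligodendrocyte and myelin markers to 3415 CPM against 24669 to 29484 CPM. The other 23 libraries carried the markers of cord glia and neurons and are called the 23 cords. All tests use them, and the ganglion-like library is described on its own at the end. Chrna7 lay at 9.09 to 14.5 CPM in knockout cords (median 13.1, n = 12) and at 9.38 to 15.9 CPM in wild-type cords (median 14.2, n = 11), and counts of whole cord do not test a deletion in myeloid cells. The labels number the libraries, and libraries 1 to 12 hold males given paclitaxel and females given vehicle, while libraries 13 to 24 hold females given paclitaxel and males given vehicle. The labels do not say whether the numbers mark an order of processing.

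All 8 transcripts were abundant, with 2966 counts or more in every library. Hmgcs1 (chromosome 13, 119690379 to 119708260 of GRCm38), the cytosolic synthase that makes HMG-CoA for the mevalonate pathway, lay at 318 to 459 CPM in the 23 cords, with a median of 381 CPM. Idi1 (chromosome 13, 8885501 to 8892451), the isomerase that makes the reactive isoprenoid unit, lay at 31.7 to 44.1 CPM (median 37.9). Fdft1 (chromosome 14, 63145150 to 63179578), squalene synthase, which commits isoprenoids to sterols, lay at 100.4 to 137 CPM (median 117). These 3 enzymes lead from acetyl units to squalene, the chain from which the sterol ring is closed.

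Sqle (chromosome 15, 59315077 to 59331192), squalene epoxidase, a rate-limiting enzyme of the sterol branch, lay at 84.9 to 109 CPM (median 95.3). Lss (chromosome 10, 76531588 to 76557138), which closes the ring to form lanosterol, lay at 60.7 to 88.3 CPM (median 74.0). Cyp51 (chromosome 5, 4081145 to 4104746), the lanosterol demethylase, lay at 138 to 176.0 CPM (median 154). Msmo1 (chromosome 8, 64718139 to 64733792), an oxidase that prepares further methyl groups for removal, lay at 134 to 179 CPM (median 162). Dhcr7 (chromosome 7, 143823145 to 143848410), the reductase that makes cholesterol from its dehydro precursor, lay at 37.8 to 51.6 CPM (median 44.2). The coefficient of variation over the 23 cords ran from 5.52 to 9.39%, so each gene kept within a narrow band.

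Per kilobase of merged exons, Hmgcs1 was the most abundant of the 8, at 84.4 ± 6.56 RPKM (CPM divided by exon length in kilobases, SD, n = 23). Cyp51 followed at 35.3 ± 1.95 RPKM and lay above Fdft1, at 27.6 ± 2.31 RPKM, in 23 of 23 cords, although their ranges overlapped. By this measure Fdft1 and Msmo1, at 26.2 ± 1.65 RPKM, were not separated, since Fdft1 was the higher in 16 of 23 cords. Sqle at 17.5 ± 1.30 RPKM and Idi1 at 10.8 ± 0.959 RPKM each stood clear of their neighbours in this order. Dhcr7, at 7.67 ± 0.720 RPKM, and Lss, at 6.87 ± 0.608 RPKM, overlapped, with Dhcr7 the higher in 21 of 23 cords. The merged exons of Lss cover 10787 bases, the longest of the 8, which lowers its level per length. Bases shared with another gene are part of these lengths, though reads that overlapped both genes were not counted. Fdft1 has the largest such share, 774 of 4227 bases, which also lowers its level per length. The order of Fdft1 against Cyp51 and Msmo1 is therefore not settled.

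Genes on the opposite strand share exon bases with 5 of the 8, and reads were counted without strand, so reads in shared stretches cannot be assigned to either gene. Fdft1 shares 774 of its 4227 exon bases (18.3%) with Ctsb, the gene of the lysosomal protease cathepsin B, which lay at 583 to 738 CPM. Reads that overlapped both genes were not counted, so Fdft1 lost its reads in that stretch. Whether unspliced or extended transcripts of Ctsb also added reads to Fdft1 was not tested, and the counts of Fdft1 are uncertain. Cyp51 shares 166 bases (3.76%) with Akap9, at 85.9 to 128 CPM. The partners of Hmgcs1, Idi1 and Lss lay at 0.798 CPM or less in every cord.

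Promoters were looked at because the enzymes are known to share a sterol-controlled factor. RefSeq windows on GRCm38.p6, from 250 bases before to 50 bases after the start site, were at hand for 6 of the 8 genes (8 windows), and not for Fdft1 and Sqle. The core of the sterol regulatory element was searched as TCACNCCAC on both strands, and the CCAAT box, the site of nuclear factor Y that works beside it, as CCAAT or its reverse complement ATTGG. The sterol motif was found in 1 of the 6 genes, Hmgcs1, at position -137 from the start site, and in 1.24% of all 32851 windows. A CCAAT box was found in all 6 genes, in 6 of the 8 windows, and in 37.4% of all windows. The 250 bases before the start are shown for Hmgcs1, the most abundant gene and the one with both motifs, for Cyp51 and Msmo1, which varied with it across cords, and for Idi1, which had the lowest r with it in log2 CPM (0.18, and 0.56 in deviations from the group means, where Lss was lower at 0.44). They are written 5′ to 3′ on the gene's strand with motif letters in capitals. Hmgcs1 is at chr13:119690101-119690350 (plus strand), Idi1 at chr13:8885356-8885605 (plus), Cyp51 at chr5:4104698-4104947 (minus) and Msmo1 at chr8:64733579-64733828 (minus).
Hmgcs1: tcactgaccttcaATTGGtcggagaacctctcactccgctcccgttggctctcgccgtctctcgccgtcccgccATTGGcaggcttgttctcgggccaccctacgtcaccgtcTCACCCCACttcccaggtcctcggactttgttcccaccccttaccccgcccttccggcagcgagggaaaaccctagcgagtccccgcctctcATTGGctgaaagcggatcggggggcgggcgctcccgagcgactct
Idi1: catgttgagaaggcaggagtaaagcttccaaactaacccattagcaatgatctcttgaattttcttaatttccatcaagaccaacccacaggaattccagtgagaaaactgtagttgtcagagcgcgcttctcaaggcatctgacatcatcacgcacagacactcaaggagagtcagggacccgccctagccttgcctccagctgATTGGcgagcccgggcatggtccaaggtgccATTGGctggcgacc
Cyp51: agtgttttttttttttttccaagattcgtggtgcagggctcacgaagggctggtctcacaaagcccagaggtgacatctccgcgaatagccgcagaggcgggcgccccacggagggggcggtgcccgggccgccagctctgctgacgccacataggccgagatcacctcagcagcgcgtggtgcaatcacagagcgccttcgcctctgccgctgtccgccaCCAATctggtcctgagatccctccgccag
Msmo1: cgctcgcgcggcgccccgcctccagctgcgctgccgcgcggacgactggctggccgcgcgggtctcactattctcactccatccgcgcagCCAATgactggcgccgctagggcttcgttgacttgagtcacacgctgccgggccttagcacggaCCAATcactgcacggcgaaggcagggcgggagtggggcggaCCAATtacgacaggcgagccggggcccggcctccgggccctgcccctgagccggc
In these 250 bases Hmgcs1 held CCAAT boxes at positions -237, -176 and -45 from the start site, Idi1 at -45 and -14, Cyp51 at -29, and Msmo1 at -160, -96 and -55. A match of letters does not show that a factor binds there, and none of the windows was tested for activity.

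Over all animals, none of the 8 enzymes passed the test of paclitaxel against vehicle. By edgeR's quasi-likelihood test with Benjamini-Hochberg adjustment over 25372 genes (edgeR adjusted p, called under 0.05), 5 genes were called (0.0197%, with 0.00394% of all genes higher and 0.0158% lower) and 0 of the 8, with 2583 genes at an unadjusted p under 0.05 and 158 called by DESeq2. Hmgcs1 averaged 387 ± 32.3 CPM in paclitaxel cords (n = 11) and 389 ± 29.4 CPM in vehicle cords (n = 12). Idi1 averaged 36.5 ± 3.42 CPM in paclitaxel cords and 38.9 ± 3.02 CPM in vehicle cords, with a log2 fold change of -0.08 (95% interval -0.16 to 0.00, edgeR adjusted p = 0.480). Dhcr7 averaged 46.3 ± 4.14 CPM in paclitaxel cords and 43.1 ± 3.74 CPM in vehicle cords, with a log2 fold change of 0.08 (95% interval -0.02 to 0.18, edgeR adjusted p = 0.572). The 8 log2 fold changes had a median of 0.01, against 0.01 over all genes tested, and the groups overlapped for every enzyme. In bulk tissue, fewer cells of a type and less RNA per cell cannot be told apart, for these and all further values.

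Within knockout cords, 0 of the 8 enzymes were called among 6 genes (0.0236%, with 0.00788% of all genes higher and 0.0158% lower, 2863 with an unadjusted p under 0.05, and 126 with DESeq2). Idi1 averaged 35.6 ± 3.48 CPM with paclitaxel and 40.0 ± 3.80 CPM with vehicle (n = 6 each, log2 fold change -0.16, standard error 0.05, edgeR adjusted p = 0.257). Dhcr7 averaged 47.6 ± 2.78 CPM with paclitaxel and 42.9 ± 3.95 CPM with vehicle (log2 fold change 0.15, standard error 0.06, edgeR adjusted p = 0.354), with 6 of 6 paclitaxel cords above the vehicle mean. Fdft1 averaged 120.3 ± 6.99 CPM with paclitaxel and 112 ± 9.14 CPM with vehicle (log2 fold change 0.11, edgeR adjusted p = 0.404). In wild-type cords 0 genes were called (0%, 2021 with an unadjusted p under 0.05, and 4 with DESeq2), and the 8 enzymes had log2 fold changes of -0.05 to 0.06 with edgeR adjusted p of 0.764 or more. The difference in response between knockout and wild-type cords was not called for any gene (0%, 2134 with an unadjusted p under 0.05, and 0 with DESeq2). Idi1 had the smallest p of the 8 there, with a knockout log2 fold change less the wild-type one of -0.16 (standard error 0.08, edgeR adjusted p = 0.591).

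The loss of Chrna7 from myeloid cells went with no called change in the enzymes. Over all animals 3 genes were called (0.0118%, 852 with an unadjusted p under 0.05, and 5 with DESeq2), and the 8 enzymes had log2 fold changes of knockout over wild-type between -0.01 and 0.05, with an edgeR adjusted p of 0.9997 or more. Cyp51 averaged 157 ± 7.73 CPM in knockout cords (n = 12) and 154 ± 9.50 CPM in wild-type cords (n = 11). Dhcr7 averaged 45.2 ± 4.08 CPM in knockout cords and 44.0 ± 4.41 CPM in wild-type cords. Under paclitaxel 1 gene was called (0.00394%, 1568 with an unadjusted p under 0.05, and 3 with DESeq2) and under vehicle 2 (0.00788%, 1319 with an unadjusted p under 0.05, and 4 with DESeq2), with 0 of the 8 in either. The smallest edgeR adjusted p of an enzyme was 0.813 under paclitaxel and 0.913 under vehicle.

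**Figure D1:**
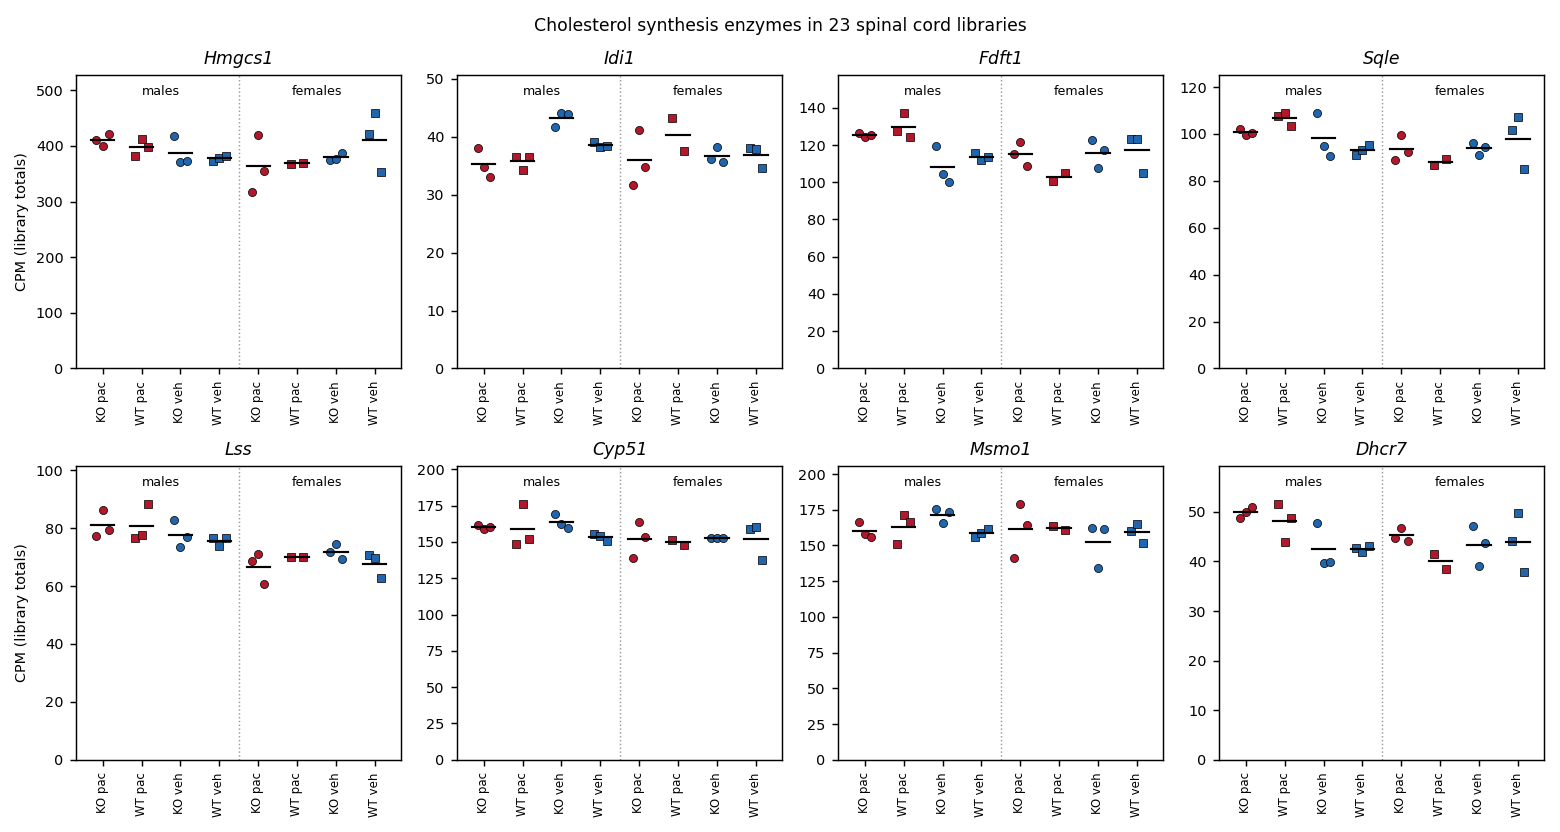
CPM of the 8 enzymes (y axis, from library totals, starting at 0) in the 23 cords, by sex, genotype (KO, knockout, circles; WT, wild-type, squares) and treatment (pac, paclitaxel, red; veh, vehicle, blue); each point is a cord and each bar a group mean. Male cords given paclitaxel sit at 124 to 137 CPM of Fdft1, above all male vehicle cords at 100.4 to 119.6 CPM, and Lss lies at 73.4 to 88.3 CPM in males against 60.7 to 74.5 CPM in females.

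Lss was higher in males than in females. It lay at 73.4 to 88.3 CPM in males (median 77.1, n = 12) and at 60.7 to 74.5 CPM in females (median 70.0, n = 11). The ranges overlapped, with 12 of 12 males above the female mean and 10 of 12 above the highest female. The means were 78.8 ± 4.63 CPM in males and 69.0 ± 3.96 CPM in females, a log2 fold change of 0.19 (standard error 0.03, 95% interval 0.12 to 0.25, edgeR adjusted p = 0.00142). Among 25372 genes 233 were called (0.918%, with 0.465% higher and 0.453% lower), 1 of them an enzyme of the 8, called higher. The call held without any 1 of the 23 cords (log2 fold change 0.17 to 0.20, edgeR adjusted p up to 0.00747). With the ganglion-like library included it was 0.12 and was not called (edgeR adjusted p = 0.620).

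The other 7 enzymes were not called between the sexes, with positive log2 fold changes of 0.02 to 0.09. Sqle averaged 99.7 ± 6.73 CPM in males and 93.9 ± 6.80 CPM in females (edgeR adjusted p = 0.271), and Cyp51 159 ± 7.78 CPM in males and 152 ± 8.09 CPM in females. The median over the 8 was 0.07, against 0.00 over all genes tested. Of 13 other enzymes of the route, 13 had positive log2 fold changes, with a median of 0.10, and 0 were called. With the ganglion-like library included, 6 of the 8 enzymes turned negative, so the shared sign rests on leaving that library out.

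In males, paclitaxel cords held more Fdft1 and less Idi1 than vehicle cords. Fdft1 lay at 124, 126 and 126 CPM in knockout males and 124, 127 and 137 CPM in wild-type males given paclitaxel, against 100.4, 104 and 119.6 CPM in knockout males and 112, 113 and 116 CPM in wild-type males given vehicle. The male groups did not overlap, and the knockout vehicle males spread most. Fdft1 averaged 128 ± 4.92 CPM in paclitaxel males and 111 ± 7.22 CPM in vehicle males (n = 6 each), and rose by 0.21 on the log2 scale (standard error 0.05, 95% interval 0.10 to 0.31, edgeR adjusted p = 0.0129). Paclitaxel in males was a comparison added after seeing the data, with 1698 genes called (6.69%, with 3.07% of all genes higher and 3.62% lower) and 3 of the 8 enzymes, 2 higher and 1 lower. Leaving out 1 cord at a time gave 357 genes (0 enzymes, without knockout male vehicle replicate 3) to 2841 genes (4 enzymes, without knockout male vehicle replicate 1). The count was also lower by more than 1.5 times without knockout male paclitaxel replicate 3 (548, 1 enzyme), knockout male vehicle replicate 2 (690, 1 enzyme) and wild-type male vehicle replicates 1 (1092) and 3 (1030). The call of Fdft1 was lost without knockout male vehicle replicate 3 (log2 fold change 0.18, edgeR adjusted p = 0.0585).

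Idi1 went the other way in males. It lay at 33.1, 34.8 and 38.1 CPM in knockout males and 34.2, 36.5 and 36.5 CPM in wild-type males given paclitaxel, against 41.7, 44.0 and 44.1 CPM in knockout males and 38.3, 38.4 and 39.1 CPM in wild-type males given vehicle. All 6 paclitaxel males lay below all 6 vehicle males, and the knockout vehicle males were the highest of the 4 groups. It averaged 35.5 ± 1.83 CPM with paclitaxel and 40.9 ± 2.73 CPM with vehicle, and fell by 0.19 on the log2 scale (standard error 0.05, 95% interval -0.31 to -0.08, edgeR adjusted p = 0.0231). The call was lost without wild-type male paclitaxel replicate 2 (edgeR adjusted p = 0.0506), knockout male paclitaxel replicate 3 (edgeR adjusted p = 0.0785), knockout male vehicle replicate 2 (edgeR adjusted p = 0.0641) or knockout male vehicle replicate 3 (edgeR adjusted p = 0.0687).

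Dhcr7 lay at 44.0 to 51.6 CPM in paclitaxel males (median 49.4) and at 39.6 to 47.8 CPM in vehicle males (median 42.3), and rose by 0.21 on the log2 scale (standard error 0.06, edgeR adjusted p = 0.0422). Of the 6 paclitaxel males, 5 lay above the highest vehicle male. This call was lost without any 1 of 16 of the 23 cords (edgeR adjusted p up to 0.140), and held only without knockout female vehicle replicate 1 or 2, wild-type female vehicle replicate 2 or 3, wild-type male paclitaxel replicate 2, knockout female paclitaxel replicate 1 or knockout male vehicle replicate 1. Sqle lay at 99.7 to 109 CPM in paclitaxel males and 90.4 to 109 CPM in vehicle males (log2 fold change 0.12, edgeR adjusted p = 0.148). Of 13 other enzymes of the route, Mvd, the decarboxylase that makes the first isoprenoid, was the 1 called in males, where it rose by 0.25 (edgeR adjusted p = 0.0456). Over all genes 6.69% were called there. With the ganglion-like library in the fit, 0 genes were called in males, and Fdft1, Idi1 and Dhcr7 had log2 fold changes of 0.21, -0.20 and 0.21.

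In females none of the 8 was called, with 1 gene called in all (0.00394%, 2377 at an unadjusted p under 0.05). Fdft1 lay at 100.8 to 122 CPM in paclitaxel females (median 109, n = 5) and at 105 to 123 CPM in vehicle females (median 120.1, n = 6), with a log2 fold change of -0.11 (standard error 0.05, edgeR adjusted p = 0.502). Hmgcs1 averaged 366 ± 36.9 CPM in paclitaxel females and 395 ± 38.7 CPM in vehicle females (log2 fold change -0.12, edgeR adjusted p = 0.565). Idi1 averaged 37.7 ± 4.68 CPM in paclitaxel females and 36.8 ± 1.55 CPM in vehicle females. Dhcr7 averaged 43.2 ± 3.23 CPM in paclitaxel females and 43.6 ± 4.58 CPM in vehicle females.

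**Figure D2:**
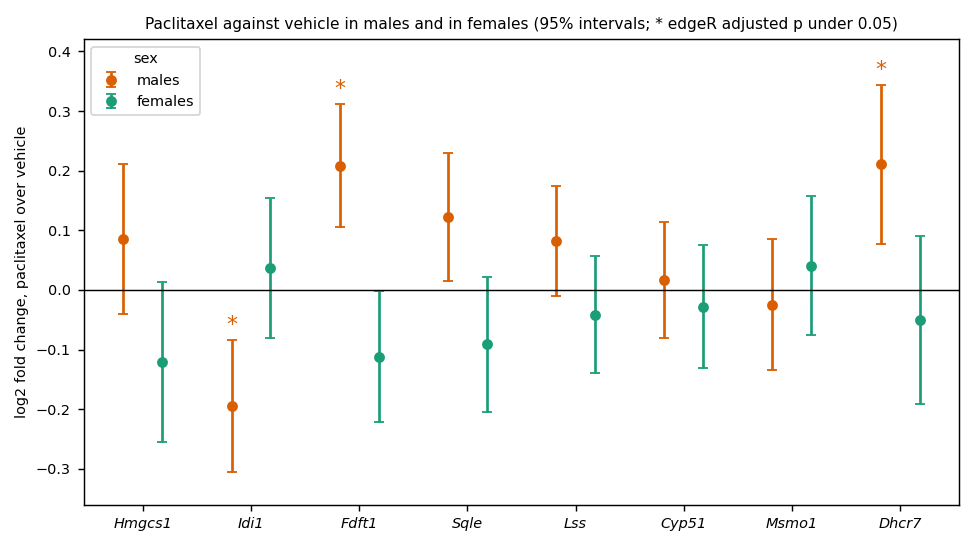
Log2 fold change of paclitaxel over vehicle (y axis) for the 8 enzymes in males (orange) and females (green), with 95% intervals of the edgeR fit over the 23 cords; a star marks an edgeR adjusted p under 0.05. Fdft1 and Dhcr7 stand at 0.21 and Idi1 at -0.19 in males, while all 8 female values lie between -0.12 and 0.04.

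The difference itself, the response of males minus that of females, was called for Fdft1 alone among the 8. Its log2 fold change differed by 0.32 (standard error 0.07, 95% interval 0.17 to 0.47, edgeR adjusted p = 0.0164). Over all genes 1259 were called (4.96%), 690 higher (2.72%) and 569 lower (2.24%), so 1 called enzyme of 8 is no result about the group. The call of Fdft1 held without any 1 of the 23 cords (0.29 to 0.36, edgeR adjusted p up to 0.0492). The count of called genes was less steady, from 248 without wild-type female paclitaxel replicate 1 to 2419 without knockout male vehicle replicate 1. Of the other enzymes, Idi1 had -0.23 (edgeR adjusted p = 0.0693), Sqle 0.21 (edgeR adjusted p = 0.0836), Dhcr7 0.26 (edgeR adjusted p = 0.0949) and Hmgcs1 0.21 (edgeR adjusted p = 0.168). DESeq2 also called Idi1 (DESeq2 adjusted p = 0.0379), Sqle (DESeq2 adjusted p = 0.0494) and Dhcr7 (DESeq2 adjusted p = 0.0426). The median over the 8 was 0.17, against -0.01 over all genes. Taken by genotype, Fdft1 had 0.22 in knockout (edgeR adjusted p = 0.400) and 0.42 in wild-type (edgeR adjusted p = 0.0857), and 0 genes were called in either (0%, 2849 in knockout and 4129 in wild-type at an unadjusted p under 0.05).

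Several measures moved with this difference. The contrast is exactly the split of the library numbers, since libraries 1 to 12 hold male paclitaxel and female vehicle cords and libraries 13 to 24 the other cords, so an effect of that split and the interaction cannot be told apart. The same holds for paclitaxel within either sex. Neither numbering group gives a value for it, because each holds only 1 treatment per sex. Ctsb, which overlaps Fdft1, was called in the same direction (0.24, standard error 0.07, edgeR adjusted p = 0.0316), and its deviations from the group means had r = 0.68 with those of Fdft1 over the 23 cords. With the ganglion-like library included, the Fdft1 difference was -0.10 and 0 genes were called.

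Markers of other cell types and of RNA composition were summed beside it. Over all genes 4.96% were called in this difference (2.72% higher and 2.24% lower). Of 5 noncoding RNAs held in the nucleus (Malat1, Neat1, Meg3, Miat and Kcnq1ot1), all 5 had negative differences of -0.36 to -0.33 and 4 were called. Their sum was 7221 to 8991 CPM in male paclitaxel, 7709 to 9963 CPM in male vehicle, 7619 to 9619 CPM in female paclitaxel and 6483 to 8567 CPM in female vehicle cords. All 7 endothelial markers had positive differences (2 called), and their sum was 254 to 283 CPM in male paclitaxel against 159.8 to 232 CPM in male vehicle cords, without overlap, and 219.6 to 347 CPM in female paclitaxel against 227 to 279 CPM in female vehicle cords. Of 8 microglial markers 6 had positive differences (2 called), with sums of 282 to 322 CPM in male paclitaxel against 239.5 to 347 CPM in male vehicle cords, and 253 to 284 CPM in female paclitaxel against 267 to 303 CPM in female vehicle cords. Skeletal muscle markers summed to 3.49 to 37.1 CPM in male paclitaxel against 2.31 to 7.52 CPM in male vehicle cords, and to 3.05 to 7.99 CPM in female paclitaxel against 3.45 to 18.4 CPM in female vehicle cords. All 6 muscle genes tested had positive differences, with Acta1 called (3.31, edgeR adjusted p = 0.0382). Of 8 astrocyte markers 5 were positive and Aldh1l1 was called (0.39, edgeR adjusted p = 0.0244), with sums of 7593 to 8299 CPM in male paclitaxel against 7723 to 8229 CPM in male vehicle cords, and 7747 to 8525 CPM in female paclitaxel against 8063 to 8554 CPM in female vehicle cords. Positive differences were called for 3 of 12 oligodendrocyte and myelin markers, 3 of 8 spinal neuron markers and 0 of 7 markers of oligodendrocyte precursors. Their part in the result was not tested.

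Other genes of sterol control were called in this difference too. Of 7 genes that control the pathway, 3 were called, each with a positive difference, where 4.96% of all genes were called (2.72% higher and 2.24% lower). Srebf2, the factor that drives the enzymes, lay at 170.0 to 193 CPM in male paclitaxel and 148 to 174 CPM in male vehicle cords, and at 157 to 171 CPM in female paclitaxel and 164 to 188 CPM in female vehicle cords, a difference of 0.26 (edgeR adjusted p = 0.0169) that held without any 1 cord. Srebf1, its paralog for fatty acid genes, had 0.32 (edgeR adjusted p = 0.0183), and Scap, the sterol-sensing escort, 0.19 (edgeR adjusted p = 0.0445). For paclitaxel over vehicle, Srebf2 had 0.13 in males (edgeR adjusted p = 0.0485) and -0.13 in females (edgeR adjusted p = 0.342). The same log2 fold changes in males and females were 0.28 and -0.04 for Srebf1, and 0.14 and -0.06 for Scap. Srebf1 was lost when wild-type female paclitaxel replicate 1 was left out (edgeR adjusted p = 0.0526), and Scap without any 1 of 19 cords. Insig1, the retention factor and itself a target of the pathway, had 0.09 (edgeR adjusted p = 0.525).

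Of 13 other enzymes of the route, 0 were called in this difference and 10 were positive, with a median of 0.10. Over all genes 4.96% were called (2.72% higher and 2.24% lower), so 0 of 13 is no result about these enzymes. Of 8 genes of sterol uptake and transport, 2 were called with a negative difference, Vldlr (-0.19, edgeR adjusted p = 0.0209) and Lrp8 (-0.23, edgeR adjusted p = 0.04997), receptors for apolipoprotein E and reelin. Abcg1, a sterol exporter, was 1 of 12 efflux and turnover genes called (0.34, edgeR adjusted p = 0.0239), which is near the share of all genes and no result about that list. Fasn, Scd2 and Fads2 were 3 of 9 fatty acid genes called (0.35, 0.21 and 0.28). The calls in these lists depended on single cords. Lrp8 was lost without any 1 of 17 cords, Fasn of 17, Scd2 of 18 and Fads2 of 13, Abcg1 without replicate 1 of either wild-type female group (edgeR adjusted p up to 0.0776), and Vldlr without wild-type female paclitaxel replicate 1 (edgeR adjusted p = 0.0715).

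Among paclitaxel cords alone, a comparison also added after seeing the data, 3 of the 8 enzymes were higher in males than in females, where 1406 genes were called (5.54%, with 2.69% of all genes higher and 2.85% lower). All male paclitaxel cords are in libraries 1 to 12 and all female paclitaxel cords in libraries 13 to 24, and for vehicle cords it is the reverse, so sex within a treatment and the split of library numbers cannot be told apart. The count was 73 genes (1 enzyme) without wild-type female paclitaxel replicate 1. It was 482 without replicate 2 of that group, 408 and 825 without knockout male paclitaxel replicates 3 and 2, and 486 and 574 without knockout female paclitaxel replicates 2 and 3, and reached 1670 at most. Lss averaged 80.9 ± 5.04 CPM in males and 68.1 ± 4.21 CPM in females (log2 fold change 0.25, edgeR adjusted p = 0.00371), Fdft1 128 ± 4.92 CPM in males and 110.3 ± 8.28 CPM in females (0.23, edgeR adjusted p = 0.0109), and Sqle 104 ± 3.78 CPM in males and 91.4 ± 4.99 CPM in females (0.20, edgeR adjusted p = 0.0308). The sexes did not overlap for these 3 genes. Of the 13 other enzymes of the route, 5 were called higher in males there. Lss held without any 1 cord, Fdft1 was lost when wild-type female paclitaxel replicate 1 was left out (edgeR adjusted p = 0.0900), and Sqle was lost without any 1 of 9 cords (edgeR adjusted p up to 0.153). Among vehicle cords 94 genes were called (0.370%) and 0 of the 8, with Lss at 76.8 ± 3.38 CPM in males and 69.8 ± 3.95 CPM in females (0.13, edgeR adjusted p = 0.205). With the ganglion-like library included, Fdft1 and Sqle under paclitaxel turned to -0.19 and -0.13, and Lss had 0.11.

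The enzymes varied together across cords. Over the 23 cords, 25 of the 28 pairs had a positive correlation of log2 CPM, with a median r of 0.46, and 12 pairs (42.9%) reached r of 0.5 against 2.94% of all gene pairs. After the mean of each of the 8 groups was taken away, 28 of 28 pairs were positive, with a median r of 0.51 and a range of 0.07 to 0.89. Then 14 pairs (50.0%) reached 0.5 against 3.85% of all gene pairs. Both shares are over pairs of all 25372 tested genes, those of low counts included. Pairs of genes as abundant as the enzymes were not set apart, so the contrast may partly reflect abundance. Within libraries 1 to 12 the median r was 0.54, and within libraries 13 to 24 it was 0.51. The points share tissue, scaling and the split of library numbers, and these values are descriptions.

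Of the 28 pairs, 14 passed a permutation test of Pearson's r with Benjamini-Hochberg adjustment over the 28, and 11 passed with Spearman's rho. The permutations mixed cords of all 8 groups, so differences between groups enter these p-values, and deviations from the group means were not tested. The smallest p that 100000 permutations can give is 1e-05. Fdft1 and Sqle, which make and then oxidise squalene, had r = 0.86 (rho = 0.88, permutation adjusted p = 0.00014, n = 23), r = 0.83 without the 2 cords farthest from the median of Fdft1, and r = 0.89 in deviations from the group means. Fdft1 and Dhcr7 had r = 0.82 (rho = 0.83, permutation adjusted p = 0.00014), 0.91 without the 2 farthest cords, and 0.71 in deviations. Hmgcs1 and Sqle, an early and a later enzyme, had r = 0.80 (rho = 0.87, permutation adjusted p = 0.000187), 0.82 without the 2 farthest cords, and 0.86 in deviations. Hmgcs1 and Cyp51 had r = 0.75 (rho = 0.70, permutation adjusted p = 0.00042), 0.73 without the 2 farthest cords, and 0.85 in deviations. These 4 pairs hold enzymes from the start, the middle and the end of the route.

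Idi1 and Lss stood at the edge of this co-variation. Idi1 passed with 0 of the 7 other enzymes, and with Fdft1 it had r = -0.41 (rho = -0.34, permutation adjusted p = 0.0795), and -0.40 without the 2 farthest cords. In deviations from the group means that pair had r = 0.14. Lss passed with 2 of 7, Sqle with 6, Hmgcs1 with 5, Fdft1, Cyp51 and Dhcr7 with 4 each and Msmo1 with 3. Set against the mean of the other 7 in deviations, Hmgcs1 (r = 0.91) and Sqle (r = 0.89) each ranked 1 among 15865 genes of at least 1 CPM, Fdft1 ranked 11 (r = 0.78) and Cyp51 21 (r = 0.75). Dhcr7 ranked 93 (r = 0.66), Msmo1 185 (r = 0.63), Idi1 1598 (r = 0.43) and Lss 1874 (r = 0.40).

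**Figure D3:**
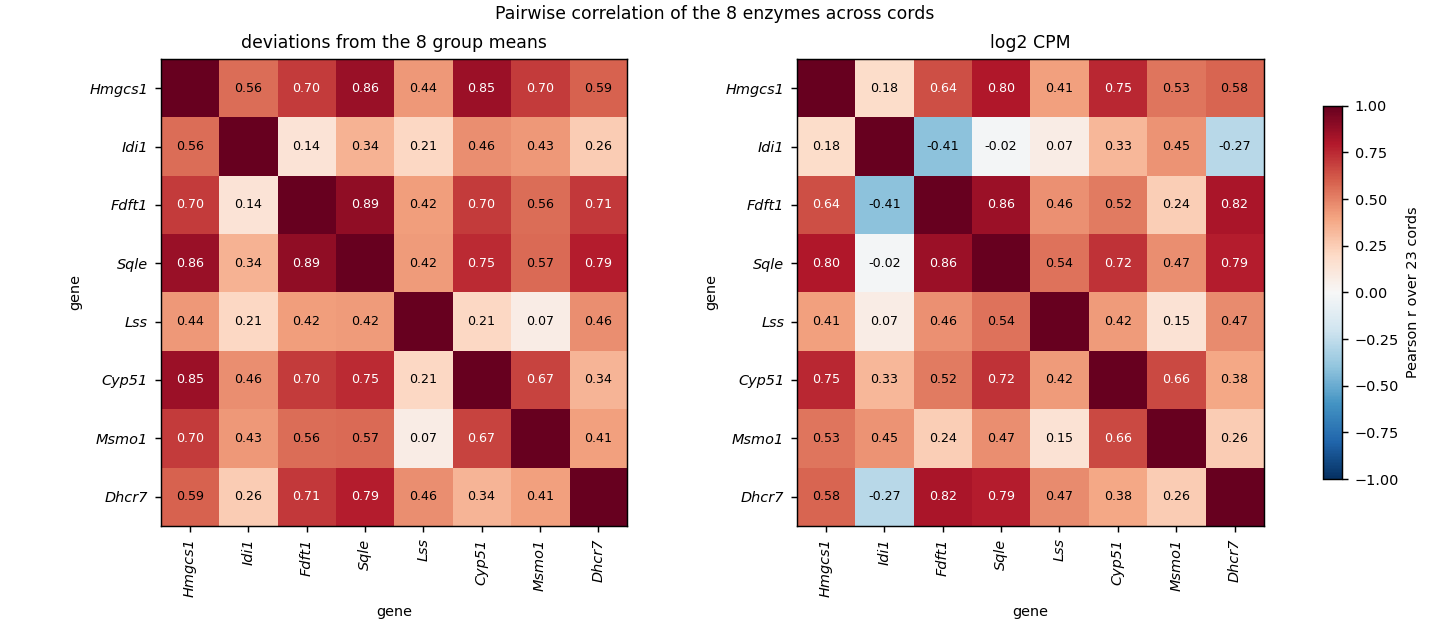
Pearson r between each pair of the 8 enzymes over the 23 cords, for deviations from the 8 group means (left) and for log2 CPM (right); colour runs from -1 (blue) to 1 (red). In deviations all 28 pairs are positive, from 0.07 to 0.89, while in log2 CPM Idi1 has -0.41 with Fdft1 and -0.27 with Dhcr7.

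The genes most like the pathway were ranked by r with the mean of the 8 enzymes, in standardized deviations from the group means, over 23 cords and 15864 other genes. Itpkb, an inositol trisphosphate kinase, ranked 1 (r = 0.86), then Rdh11, a retinol dehydrogenase (r = 0.84). Tmem8b (r = 0.82), Myo16 (r = 0.81), Mmp14 (r = 0.81), St3gal1 (r = 0.80), Gpr37 (r = 0.80), Tmem98 (r = 0.79) and Chst3 (r = 0.79) were also among the 10 most like genes. Of the 13 other enzymes of the route, 7 reached r of 0.5, against 746 of 15864 genes (4.70%). They included Mvd (r = 0.74), Sc5d (r = 0.71) and Hsd17b7 (r = 0.68), while Lbr, a sterol reductase that is also a lamin receptor, had r = -0.50. Insig1 ranked 11 (r = 0.79) and Srebf2 735 (r = 0.50). Of 12 efflux and turnover genes 0 reached 0.5, and of 9 fatty acid genes 3 did.

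The mean of the 8 enzymes also moved against the nuclear-retained noncoding RNAs. In deviations from the group means, r with their summed level was -0.63 (rho = -0.56, n = 23), and -0.49 without the 2 farthest cords. It was -0.35 with ribosomal protein genes (-0.52 without the 2 farthest cords), 0.40 with astrocyte markers (0.27 without them), 0.34 with spinal neuron markers (0.24) and 0.30 with oligodendrocyte precursor markers (0.62). Without the 2 farthest cords the values with precursors and ribosomal protein genes were thus larger in size than that with nuclear RNAs. It was 0.15 with endothelial markers (0.48 without the 2 farthest cords), 0.17 with oligodendrocyte and myelin markers (0.06), -0.13 with microglial markers (-0.12), -0.11 with markers of dorsal root ganglion neurons (-0.04), -0.01 with those of Schwann and satellite cells (-0.28) and 0.03 with those of skeletal muscle (-0.01). With the library total it was 0.00. The part of RNA composition in the co-variation was not tested. Wild-type female vehicle replicate 3 had the lowest mean of the 8, in level and in deviation, and the highest nuclear RNA sum of its group at 8046 CPM. The highest level was in knockout male vehicle replicate 1, and the highest deviation in knockout female paclitaxel replicate 2.

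**Figure D4:**
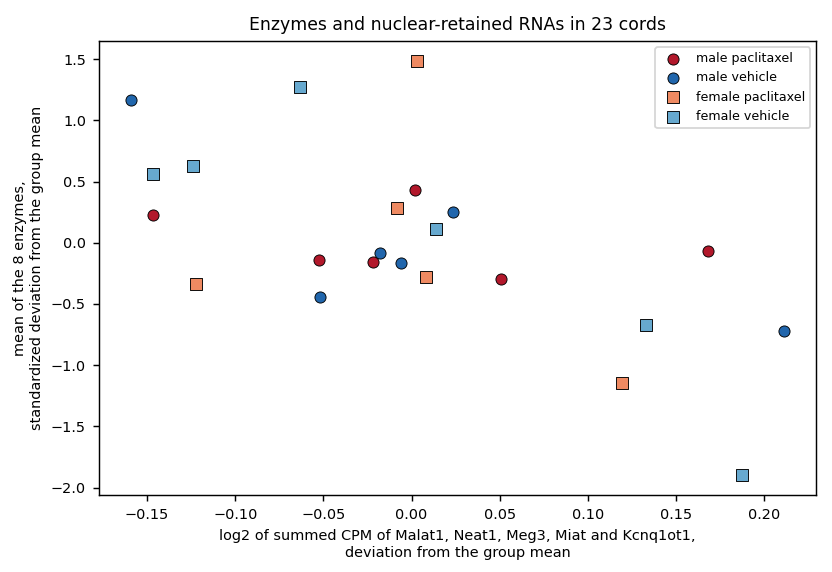
Mean standardized deviation of the 8 enzymes from their group means (y axis) against the deviation of log2 summed CPM of Malat1, Neat1, Meg3, Miat and Kcnq1ot1 from its group mean (x axis), in 23 cords; circles are males, squares females, red and orange paclitaxel, blue vehicle. The points fall from upper left to lower right with r = -0.63.

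The ganglion-like library held most of these transcripts above every cord. Hmgcs1 lay at 927 CPM there (95% exact binomial interval 921 to 933, counting error of reads only), against at most 459 CPM in the 23 cords, 2.43 times their median. Fdft1 lay at 325 CPM (321 to 328) against at most 137 CPM, 2.77 times the median, and Sqle at 222 CPM (219 to 225) against at most 109 CPM, 2.33 times the median. These 3 were the enzymes over 2-fold above the median, where 13.4% of all tested genes were. Ctsb, which overlaps Fdft1, was at 1482 CPM in this library.

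Msmo1 lay at 298 CPM (294 to 301) against at most 179 CPM, Idi1 at 70.4 CPM (68.8 to 72.2) against at most 44.1 CPM, Dhcr7 at 75.0 CPM (73.3 to 76.8) against at most 51.6 CPM, and Lss at 107 CPM (105 to 109) against at most 88.3 CPM. Cyp51, at 174 CPM (171 to 177), stayed within the range of the cords. In all, 7 of the 8 enzymes lay above all 23 cords, as did 25.3% of all tested genes, while 0 of the 8 and 33.6% of all genes lay below all cords. The median log2 ratio to the cords was 0.89 for the 8 and -0.09 for all genes. With 1 library there is no replicate of this difference. The library's astrocyte markers stood at 16.1% and its oligodendrocyte and myelin markers at 12.6% of the median cord, while Schwann and satellite cell markers stood at 805% and nuclear-retained RNAs at 99.2%. Its skeletal muscle markers summed to 417 CPM, against 2.31 to 37.1 CPM in the cords, so the library also carried muscle RNA.

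Of 13 other enzymes of the route 12 also lay above all cords in this library, where 25.3% of all tested genes did. Lbr, at 20.2 CPM, lay below every cord. The genes that control the pathway did not follow, with 0 of 7 above and 5 below all cords. Of all tested genes 25.3% lay above and 33.6% below. Srebf2 lay at 177 CPM, within the 148 to 193 CPM of the cords, and Insig1 at 152 CPM, below their lowest value of 155 CPM. Cyp46a1, the neuronal hydroxylase that turns cholesterol over in the brain, lay at 9.81 CPM against at least 38.6 CPM.

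**Figure D5:**
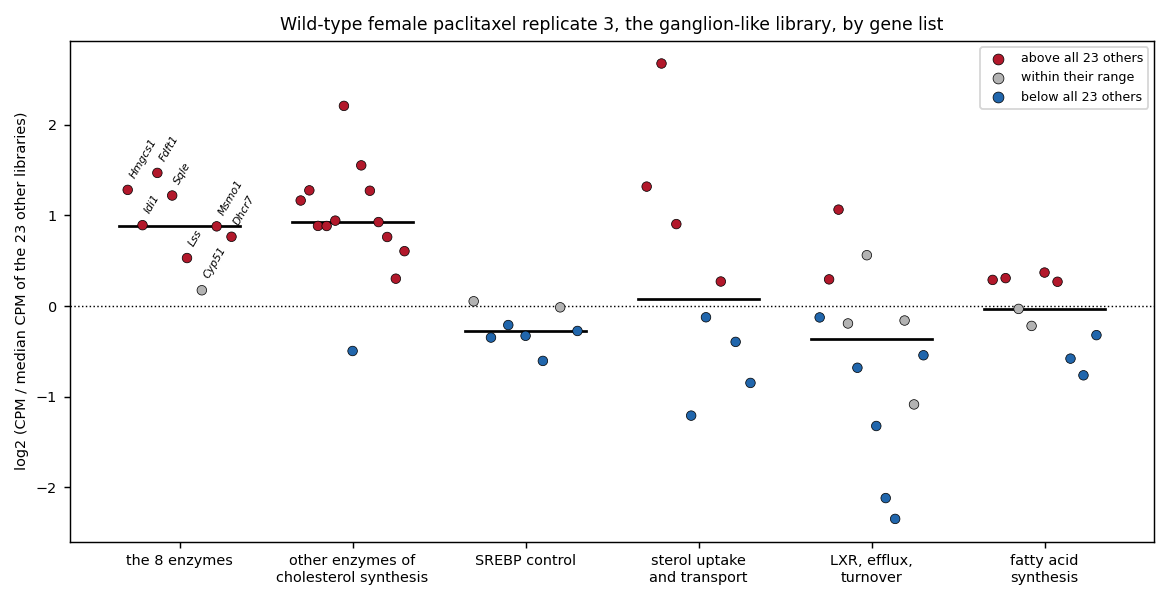
Log2 ratio of CPM in the ganglion-like library, wild-type female paclitaxel replicate 3, to the median CPM of the 23 cords (y axis), for each gene of 6 lists; red points lie above, blue below and grey within the range of all 23 cords, and bars are list medians. Of the 8 enzymes 7 are red with a list median of 0.89, while the 7 genes of SREBP control have 0 red and 5 blue points. Of all tested genes 25.3% lay above and 33.6% below all 23 cords.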

How the data were processed

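RNA of 24 lumbar cords was counted per gene symbol. The authors deposited 1 table of whole-number counts, without normalization, and all 8 enzymes passed the low-count filter. The submitters' processing notes name STAR (version not given in the sources used here) as aligner and featureCounts 1.6.2 as counter. Exons of Ensembl release 96 on GRCm38 were summed by gene name without strand, and no read-pair option was set, per the file headers. Odd values made up 34.4 to 37.3% of counts between 1 and 20, so both mates were taken as counted separately, which raises totals but not the number of molecules. Multi-mapping reads, and reads that touch more than 1 gene, stayed uncounted, per the file headers.

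The 8 enzymes and the lists of pathway genes and markers were chosen with earlier results of these data known. The genes named outside the 8 are members of the pathway lists that were called, Srebf2 and Insig1 in any case, the 10 genes most like the pathway, and markers beside a result. Mvd, Sc5d, Hsd17b7, Lbr and Cyp46a1 were named after their values were seen. Some genes that this rule names are not reported here. Levels are CPM from library totals, given as mean ± SD. Tests used edgeR 4.0.16 in R 4.3.3 on 23 libraries (filterByExpr over 8 groups, TMM factors, robust quasi-likelihood fit of the 8 group means, Benjamini-Hochberg adjustment over 25372 genes, called under 0.05), with 9 comparisons and 6 added after seeing the data. The ganglion-like library was left out of these fits, and fits of all 24 libraries stand beside them. The scripts were tested on simulated data. Correlations used log2 CPM with TMM factors and 100000 permutations (scipy 1.17.1). Alternatives were DESeq2 1.42.0, DESeq2's size factors in edgeR (RLE), library totals without TMM factors, no low-count filter, a replicate block, all 24 libraries and each library left out in turn. Replicate numbers did not pair the animals. Replicates differed beyond sampling noise (chi-square per degree of freedom of at least 8.99 in 24 pairs). Each library comes from its own mouse. Intervals of single libraries cover counting error only. They treat counted reads as independent, so with both mates counted they are too narrow.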

Additional observations from a re-analysis of the deposited data

Results flagged for a closer look

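Each enzyme was tested for a cord far from the rest within each genotype and treatment, with the sexes pooled. Of these 32 sets of 5 or 6 cords, 5 held such a cord. Chance gives about 1 in 20 for independent sets, but these share cords across enzymes that vary together, so the shares cannot be compared. Knockout male vehicle replicate 1 lay apart among knockout vehicle cords in Hmgcs1 (418 CPM) and Sqle (109 CPM). Wild-type female vehicle replicate 3 had the lowest Idi1 of wild-type vehicle cords (34.6 CPM). Wild-type male paclitaxel replicate 2 had the highest Cyp51 of wild-type paclitaxel cords (176.0 CPM), and knockout female vehicle replicate 2 the lowest Msmo1 of knockout vehicle cords (134 CPM).

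The response to paclitaxel differed between males and females, as male minus female log2 fold change by edgeR, in Fdft1 (0.32) and around the pathway in Srebf2 (0.26), Srebf1 (0.32), Scap (0.19), Lrp8 (-0.23), Vldlr (-0.19), Abcg1 (0.34), Fasn (0.35), Scd2 (0.21) and Fads2 (0.28). This contrast is also the split of library numbers, and the 2 cannot be told apart.

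In the ganglion-like library, outside all tests, 7 enzymes lay above every cord, as did 25.3% of all tested genes. The enzymes were Hmgcs1 (927 CPM), Idi1 (70.4 CPM), Fdft1 (325 CPM), Sqle (222 CPM), Lss (107 CPM), Msmo1 (298 CPM) and Dhcr7 (75.0 CPM).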

How the results depend on the processing

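Lss between the sexes and Fdft1 in the difference of the paclitaxel response between the sexes were called under every alternative on 23 libraries and without any 1 cord, and both were lost with all 24 libraries. With all 24 libraries edgeR called 0 genes for paclitaxel over all animals, 0 in knockout, 0 for knockout against wild-type under paclitaxel and 1 under vehicle, 28 (0 enzymes) between the sexes, and 0 (0 enzymes) for the sex difference in response, while 28 of 28 pairs of enzymes passed. Signs turned there for Idi1 under paclitaxel (0.0104), for males over females in Hmgcs1 (-0.12), Idi1 (-0.0705), Fdft1 (-0.14), Sqle (-0.0733), Msmo1 (-0.0647) and Dhcr7 (-0.0268), for the sex difference in response in Hmgcs1 (-0.12), Fdft1 (-0.10), Sqle (-0.11), Lss (-0.0151) and Cyp51 (-0.0132), and for males over females under paclitaxel in Fdft1 (-0.19) and Sqle (-0.13). Without wild-type female paclitaxel replicate 2, Idi1 between the sexes was -0.0054, and over all cords left out in turn it reached 0.0522. DESeq2 called 158 genes for paclitaxel over all animals, 126 in knockout and 4 in wild-type, 5 for genotype over all animals, 3 under paclitaxel and 4 under vehicle, 583 between the sexes and 2376 (4 enzymes) for the sex difference in response. Without the low-count filter edgeR called 338 genes for paclitaxel, 470 in knockout and 254 in wild-type, 99 for genotype, 215 under paclitaxel and 111 under vehicle, 366 for the genotype difference in response, 749 between the sexes and 2181 (5 enzymes) for the sex difference in response. Without TMM factors it called 3 genes for paclitaxel and 2 enzymes for the sex difference in response. The replicate block, whose numbers do not pair the animals (0 of 77 same-number pairs of cords had a correlation over 0.1), gave 9 genes for paclitaxel, 0 for genotype under paclitaxel, and 1891 (2 enzymes, Fdft1 and Sqle) for the sex difference in response. Leaving out 1 cord at a time gave 2 to 62 genes for paclitaxel, 0 to 332 in knockout, 0 to 4 in wild-type, 3 to 5 for genotype, 0 to 2 under paclitaxel, 1 to 3 under vehicle, 0 to 1 for the genotype difference in response, 65 to 324 between the sexes, 248 to 2419 (1 to 4 enzymes) for the sex difference in response, and 10 to 16 pairs. For paclitaxel in males DESeq2 called 2672 genes, and for males against females under paclitaxel it called 2363, while there edgeR called 2136 (5 enzymes) without the low-count filter and 44 (0 enzymes) with all 24 libraries. The cause of these shifts was not tested. Each enzyme had 2966 counts or more in every library.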
